A study of Homo sapiens with 6 samples.

Results

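The genes described here are 7 immune checkpoint genes that tumour cells can express: CD274, PDCD1LG2, CD276, PVR, LGALS9, IDO1 and CD47. They were chosen by name, as the rows of the expression tables whose gene symbol equals one of these 7, and each symbol had 1 row among the 37493 gene identifiers. Expression was measured by RNA sequencing in OE33 and Eso26, 2 human cell lines from esophageal adenocarcinoma, a gland-forming cancer of the lower esophagus. The groups were OE33 siPPARG, OE33 control, Eso26 siPPARG and Eso26 control. siPPARG cells were transfected with an siRNA against PPARG, the lipid-activated nuclear receptor that the study's title links to fatty acid synthesis, and control cells with a non-silencing siRNA, in each case with Lipofectamine RNAiMAX. OE33 was grown in DMEM and Eso26 in RPMI-1640, so line and medium cannot be told apart. Each group was 1 library, although the series' design text speaks of triplicates.

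Immune checkpoints are ligand and receptor pairs, and enzymes, that restrain immune cells. CD274 encodes PD-L1 and PDCD1LG2 encodes PD-L2, the ligands of the inhibitory T cell receptor PD-1, and tumour cells can raise them in response to interferon through JAK and STAT signalling and the factor IRF1. CD276 encodes a relative of these ligands in the B7 family. PVR is the poliovirus receptor, a nectin-like adhesion protein bound by the T cell and NK cell receptors TIGIT, CD96 and CD226. LGALS9 encodes galectin-9, a sugar-binding protein and ligand of the receptor TIM-3. IDO1 is an enzyme that breaks down tryptophan to kynurenine, a step that restrains T cells. CD47 signals to SIRPA on macrophages and so limits phagocytosis.

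The stretch before the gene start is shown for CD274 and LGALS9, which were both higher in OE33 siPPARG. Within the stretch shown, CD274 held matches to sequence elements linked to interferon and LGALS9 held none. Bases outside these 250, including those across the start, were not searched. Both sequences are from RefSeq on GRCh38.p14 and are the 250 bases before the annotated start, on the plus strand, at chr9:5450292-5450541 for CD274 and chr17:27630938-27631187 for LGALS9. Capitals mark matches to the core of the interferon-stimulated response element, searched as 2 copies of GAAA with any 2 bases between them, or to TTCNNNGAA, the interferon gamma activated element, each on both strands.
CD274: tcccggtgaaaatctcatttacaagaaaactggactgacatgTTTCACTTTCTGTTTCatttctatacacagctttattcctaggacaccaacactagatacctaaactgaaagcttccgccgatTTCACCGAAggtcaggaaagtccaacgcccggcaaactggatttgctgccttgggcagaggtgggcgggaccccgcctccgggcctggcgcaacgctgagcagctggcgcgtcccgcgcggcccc
LGALS9: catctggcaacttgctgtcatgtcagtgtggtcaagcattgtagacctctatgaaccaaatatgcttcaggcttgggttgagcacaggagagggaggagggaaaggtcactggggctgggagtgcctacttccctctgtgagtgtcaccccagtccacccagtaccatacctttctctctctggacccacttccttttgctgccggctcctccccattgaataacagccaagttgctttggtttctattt

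The CD274 window held 2 overlapping matches to the response element core, both read on the minus strand, between 208 and 193 bases before the start. It also held 1 TTCNNNGAA match, 125 to 117 bases before the start. Of 35116 promoter windows of this length in the RefSeq table, 3.02% held the first motif and 6.57% the second. Of the 7 genes, 5 had promoter entries, 6 windows in all with 2 for CD276. PDCD1LG2 and IDO1 had no entry and were not searched. The windows of LGALS9, CD276, PVR and CD47 held neither motif. A strict form of the element bound by PPARG with its partner RXR, 2 copies of AGGTCA with any 1 base between them, was in none of the 6 windows and in 0.0171% of all windows. A match is a description of the letters and does not show that a factor was bound.

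Library totals ran from 16866996 to 23019840 counts. PPARG, the siRNA's target, had 313 counts in OE33 siPPARG and 2156 in the OE33 control, which is 0.137 times the control (95% counting interval 0.121 to 0.154). In Eso26 it had 201 counts in the library labelled siPPARG and 259 in the control, a ratio of 0.843 whose interval of 0.698 to 1.02 includes no change. Directions given for Eso26 therefore refer to the library labelled siPPARG, and neither line allows loss of PPARG and a response to the siRNA as such to be told apart. All 5 epithelial markers were present in every library, with a summed level between 4563 and 8767 CPM (counts per 1000000 after scaling). The pan-leukocyte gene PTPRC and the T cell genes CD3D and CD3E had at most 1 count in any library, and the 5 T cell markers summed to between 0.129 and 0.624 CPM. KRT8, KRT18 and KRT19, keratins of gland cells, stood at 0.999, 0.994 and 0.946 times the control in OE33 siPPARG, and at 0.772, 0.790 and 1.21 times in Eso26 siPPARG. The summed level of the 4 macrophage markers was 9.14 and 8.68 CPM in OE33 siPPARG and control, and 1.03 and 1.21 CPM in Eso26 siPPARG and control. The NK cell and endothelial markers reached at most 4.26 and 3.89 CPM, the fibroblast markers 8.15 CPM and the B cell markers 0.114 CPM. Most of the macrophage sum was CD14, with 94 and 83 counts in OE33 siPPARG and control, and most of the fibroblast sum was COL1A1, with 135 and 129 counts in Eso26 siPPARG and control.

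The level of every gene in every library is given first. With 1 library per group no test within a line was possible, and all intervals cover counting error only, at 95%. In bulk libraries, more cells expressing a gene and more RNA per cell cannot be told apart. Levels are compared between libraries for 1 gene at a time, because gene lengths were not used.

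CD274 had 1200 counts (68.1 CPM, interval 64.3 to 72.1) in OE33 siPPARG and 799 (48.2 CPM, interval 44.9 to 51.6) in the OE33 control. It had 4 counts (0.187 CPM, interval 0.0510 to 0.480) in Eso26 siPPARG and 3 (0.129 CPM, interval 0.0267 to 0.378) in the Eso26 control. PD-L1 mRNA was thus high in both OE33 libraries and close to the detection limit in both Eso26 libraries.

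PDCD1LG2 had 182 counts (10.3 CPM, interval 8.88 to 11.9) in OE33 siPPARG and 35 (2.11 CPM, interval 1.47 to 2.93) in the OE33 control. It had 0 counts in Eso26 siPPARG and 0 in the Eso26 control, where a count of 0 allows up to 3 counts, or 0.140 and 0.129 CPM. The PD-L2 gene was thus detected in OE33 alone among these libraries, as was IDO1. IDO1 had 294 counts (16.7 CPM, interval 14.8 to 18.7) in OE33 siPPARG, 86 (5.19 CPM, interval 4.15 to 6.40) in the OE33 control, and 0 in each of the Eso26 libraries, with the same limits.

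PVR had 4007 counts (227 CPM) in OE33 siPPARG, 2602 (157 CPM) in the OE33 control, 826 (38.7 CPM) in Eso26 siPPARG and 890 (38.3 CPM) in the Eso26 control. The interval of the Eso26 siPPARG level, 36.1 to 41.4 CPM, overlapped that of the Eso26 control, 35.9 to 41.0 CPM, and the other neighbours in this order did not overlap. CD47 had 4381 counts (249 CPM) in OE33 siPPARG, 2776 (167 CPM) in the OE33 control, 1795 (84.1 CPM) in Eso26 siPPARG and 2140 (92.2 CPM) in the Eso26 control. The CD47 intervals of Eso26 siPPARG, 80.2 to 88.0 CPM, and of the Eso26 control, 88.3 to 96.2 CPM, lay side by side without overlap. Both genes were well detected in every library and highest in OE33 siPPARG.

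LGALS9 gave another order, with the OE33 control lowest. It had 837 counts (47.5 CPM, interval 44.3 to 50.8) in OE33 siPPARG, 269 (16.2 CPM, interval 14.3 to 18.3) in the OE33 control, 496 (23.2 CPM, interval 21.2 to 25.4) in Eso26 siPPARG and 474 (20.4 CPM, interval 18.6 to 22.3) in the Eso26 control. The intervals of the Eso26 libraries overlapped. LGALS9 has close copies, LGALS9B and LGALS9C, and the sources used here do not say how reads that match several of them were counted, so its values are uncertain to that extent. LGALS9B had 44 and 29 counts in OE33 siPPARG and control and 9 and 19 in Eso26 siPPARG and control, and LGALS9C had 6 and 3, and 10 and 13.

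CD276 was the most even of the 7 genes across libraries. It had 2088 counts (119 CPM, interval 113 to 124) in OE33 siPPARG, 1778 (107 CPM, interval 102 to 112) in the OE33 control, 2573 (120.5 CPM, interval 116 to 125) in Eso26 siPPARG and 2493 (107 CPM, interval 103 to 112) in the Eso26 control. The siPPARG libraries overlapped each other, as did the controls.

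**Figure D1:**
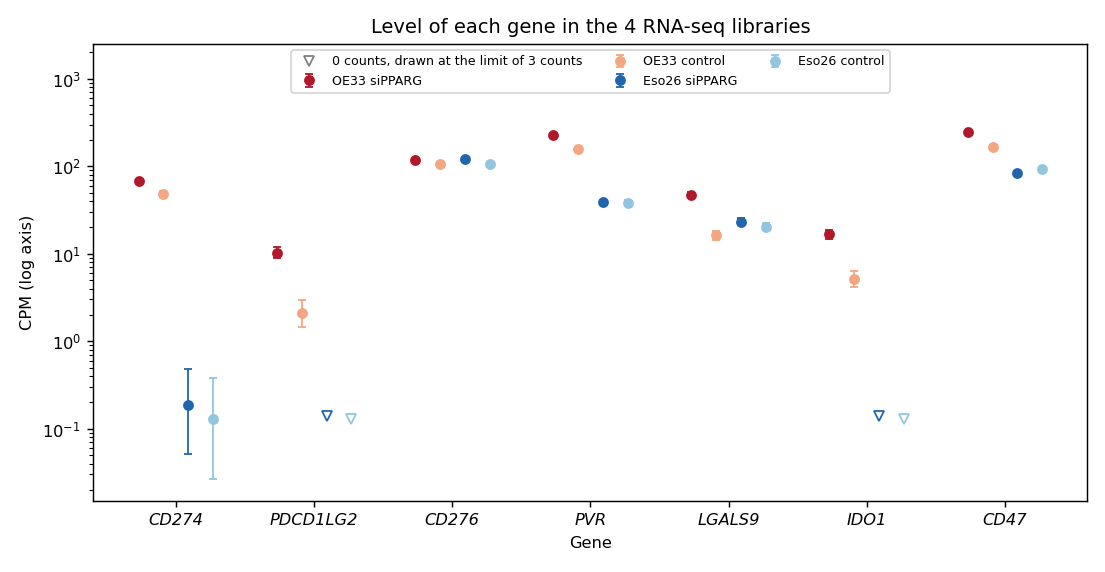
Level of the 7 genes in the 4 libraries, in CPM on a log axis, with exact Poisson 95% intervals; open triangles mark 0 counts, drawn at the limit that 3 counts give. CD274, PDCD1LG2 and IDO1 are near or at 0 in both Eso26 libraries, while CD276 lies between 107 and 120.5 CPM in all 4.

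In the comparison of siPPARG with control in OE33, all 7 genes were higher in siPPARG and 3 were more than 2-fold higher. The comparison kept 10550 genes, those with 5 CPM in either OE33 library, of which 1.08% were at least 2-fold higher and 0.408% at least 2-fold lower. All 7 genes passed that filter, PDCD1LG2 through the siPPARG library only, so its difference is in part built into its place among the genes kept. The counting interval of the ratio lay above 1 for all 7, against 26.0% of all genes kept. The median log2 fold was 0.57 for the 7 genes and 0.0024 for all genes kept.

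The largest ratios belonged to the genes with the fewest counts. PDCD1LG2 was 4.90-fold higher in OE33 siPPARG (interval 3.39 to 7.25), the 10th highest log2 fold of the 10550. IDO1 was 3.22-fold higher (interval 2.52 to 4.14), at rank 31, and LGALS9 2.93-fold higher (interval 2.55 to 3.37), at rank 42. PD-L2, the tryptophan enzyme and galectin-9 thus stood among the 42 highest of the ranking.

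The other ligands were higher by less. CD47 was 1.49-fold higher in OE33 siPPARG (interval 1.42 to 1.56), PVR 1.45-fold (interval 1.38 to 1.52) and CD274 1.41-fold (interval 1.29 to 1.55), at ranks 382, 433 and 500. CD276 was 1.11-fold higher (interval 1.04 to 1.18), at rank 2810, well inside the bulk of the genes. The intervals of PDCD1LG2 and CD274 do not overlap, so within OE33 the PD-L2 gene differed by a larger factor than the PD-L1 gene beyond counting error.

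In Eso26, none of the 7 genes was 2-fold different between siPPARG and control. Past 2-fold lay 0.202% of the 10421 genes kept, 0.0576% higher and 0.144% lower. CD274, PDCD1LG2 and IDO1 did not pass the filter there, and the 4 others did. The ratio was 1.12 for CD276 (interval 1.06 to 1.19) and 1.14 for LGALS9 (interval 1.001 to 1.29), so that 2 of the 4 had intervals above 1, against 23.6% of all genes kept. With DESeq2 size factors the LGALS9 interval of 0.998 to 1.29 includes 1. PVR stood at 1.01 (interval 0.916 to 1.11). CD47 was lower, at 0.912 (interval 0.856 to 0.971), against 29.6% of all genes with an interval below 1, and its interval of 0.883 to 1.002 without a scaling factor includes 1. The CD274 ratio of 1.45 rests on 4 and 3 counts and has an interval of 0.245 to 9.89. Changes as large as those of LGALS9 and PVR in OE33 lie outside their Eso26 intervals, whereas for CD274 the depth allows no such statement. Whether the effects differ between the lines was not tested, since that needs replicates.

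**Figure D2:**
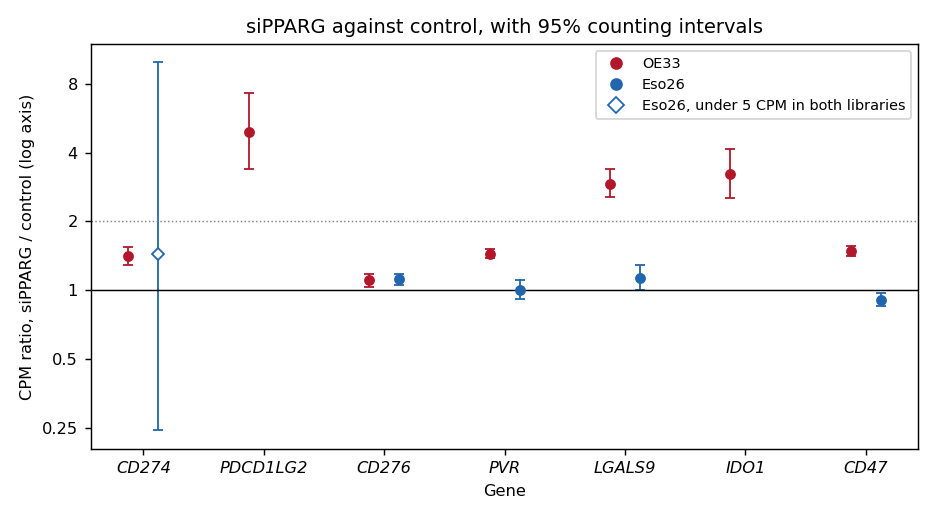
CPM ratio of siPPARG to control for each gene on a log axis, with exact 95% counting intervals; the dotted line marks 2-fold and the open diamond a gene under 5 CPM in both libraries. PDCD1LG2, LGALS9 and IDO1 lie between 2.93 and 4.90 in OE33; PDCD1LG2 and IDO1 have no Eso26 point because both libraries held 0 counts.

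A siPPARG effect shared by the lines was sought with edgeR's quasi-likelihood test on all 4 libraries, with cell line as a term and 1 residual degree of freedom. Of 11382 genes, 0% reached an adjusted p of 0.05, while 522 genes, or 4.59%, had an unadjusted p under 0.05. DESeq2 called 13 genes, none of them a checkpoint gene, but gave no adjusted p for PDCD1LG2 and IDO1. With limma 0 genes were called. Among the 7 genes the log2 effect was 2.28 for PDCD1LG2 and 1.68 for IDO1, each with an adjusted p of 0.943, and higher in siPPARG in 1 of 1 line with counts. For LGALS9 it was 0.86 and for CD274 0.50 (adjusted p = 0.943 for each). LGALS9 was higher in siPPARG in 2 of 2 lines, but its Eso26 interval of 0.998 to 1.29 with DESeq2 size factors includes 1. CD274 was higher in OE33, while its 4 and 3 counts in Eso26 siPPARG and control give no direction there. The log2 effect was 0.28 for PVR, 0.22 for CD47 and 0.16 for CD276, with adjusted p between 0.943 and 0.945. With no expression filter edgeR called 64 of 20401 genes, among them PDCD1LG2 (adjusted p = 0.0103) and IDO1 (adjusted p = 0.0199). Both have 0 counts in Eso26, so those calls rest on the OE33 libraries alone.

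The controls of the lines were compared next, OE33 over Eso26. CD274, PDCD1LG2, IDO1, PVR and CD47 were higher in the OE33 control, LGALS9 was lower and CD276 nearly equal. This comparison uses the OE33 control that also serves as the denominator of the siPPARG ratios, so the values are set side by side and not related to each other. The lines differed widely, with 37.8% of 11211 genes past 2-fold, 21.5% higher and 16.3% lower in the OE33 control. Of the 7 checkpoint genes 6 passed the filter, CD274 and IDO1 through the OE33 control only, and 3 of the 6 were at least 2-fold higher. CD274 and IDO1 are among these 3 and could pass the filter only by being high in OE33, so that count and their ranks are in part built in. The interval lay above 1 for 4 of the 6, against 45.7% of all genes, and below 1 for 1, against 43.7%.

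CD274 was 373-fold higher in the OE33 control, and because the Eso26 control held 3 counts the interval runs from 127 to 1811. Its log2 fold ranked 75th of 11211. Set against the 3 counts that a count of 0 allows in the Eso26 control, IDO1 was at least 40.1-fold higher and PDCD1LG2 at least 16.3-fold higher, without the counting error of the OE33 control. With that error included, the exact intervals of the ratios begin at 31.9 for IDO1 and 12.6 for PDCD1LG2. PDCD1LG2 was under the filter in both controls. PVR was 4.09-fold higher (interval 3.79 to 4.42) and CD47 1.82-fold higher (interval 1.71 to 1.92).

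LGALS9 went the other way, at 0.794 times the Eso26 control (interval 0.681 to 0.924). CD276 stood at 0.998 (interval 0.939 to 1.06). The PD-1 ligands thus differed between the controls by a far larger factor than their B7 relative CD276.

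In the edgeR model of all 4 libraries, 2 per line with treatment as a term, 71.3% of 11382 genes differed between the lines, 37.2% being higher in OE33. Of the 7 genes, 5 were called and all 5 were higher in OE33, a share of calls near that of all genes. The adjusted p was 1.52e-05 for CD274 (log2 difference 8.46), 0.000149 for PVR (2.29) and 0.00253 for CD47 (1.21), each higher in 2 of 2 OE33 libraries than in either Eso26 library. It was 0.000204 for IDO1 and 0.000417 for PDCD1LG2, whose fitted differences are no bound because Eso26 had 0 counts. It was 0.336 for LGALS9 (log2 difference 0.38), with the OE33 libraries on either side of the Eso26 libraries, and 0.914 for CD276 (-0.014). Leaving out the Eso26 library labelled siPPARG leaves 1 Eso26 library, so only the size of the difference is given. The log2 difference was then 8.73 for CD274, 2.31 for PVR and 1.16 for CD47, each higher in OE33. For LGALS9 it was 0.63 and for CD276 0.061. The fitted differences of IDO1 and PDCD1LG2 are again no bound.

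CD274 and PDCD1LG2 are direct neighbours on chromosome 9 in RefSeq's gene order, next to PLGRKT on one side and RIC1 on the other, with JAK2 a few genes away. The neighbouring genes of 9p24 were mostly higher in the OE33 control too, but by far less than CD274. Of 20 listed neighbours, 12 passed the filter, and 12 of these 12 had a log2 fold above 0. Of the 12, 7 were at least 2-fold higher, against 21.5% of all genes kept. Their median log2 fold was 1.07, against 0.029 for all genes. RIC1 was 2.97-fold higher (interval 2.64 to 3.35), JAK2 2.92-fold (interval 2.40 to 3.55) and PLGRKT 1.65-fold (interval 1.38 to 1.98). AK3, on the far side of JAK2, stood at 1.05 (interval 0.993 to 1.11). In siPPARG against control the same neighbours had a median log2 fold of -0.031 in OE33 and -0.12 in Eso26. RIC1, RANBP6 and CDC37L1 differed most, at 1.28, 1.12 and 1.22 times the control in OE33 and 0.920, 0.820 and 0.846 times in Eso26, and none was past 2-fold.

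A list of genes around the route that is known to raise PD-L1, from the interferon receptors to IRF1, was compared next. It also holds SOCS1, SOCS3 and PTPN2, which restrain that route, and IRF2 and STAT3. Its counts therefore mix genes of the route with its inhibitors. The listed genes were mostly higher in OE33 siPPARG, few of them by much. Of 14 kept of 16, 11 were higher and 1 was past 2-fold. The interval lay above 1 for 7, against 26.0% of all genes kept, and below 1 for 2, against 24.5%. The median log2 fold was 0.16, against 0.0024 for all genes. STAT2, a transcription factor of the type I interferon response, was 2.16-fold higher (interval 1.99 to 2.34). IFNGR2, a chain of the interferon gamma receptor, was lower, at 0.704 (interval 0.656 to 0.754). IRF1 stood at 1.15 (interval 1.07 to 1.24). In Eso26, 5 of 13 were higher and 8 lower, with a median of -0.044. STAT2 stood at 1.03, IFNGR2 at 0.963 and IRF1 at 1.09 times the control there.

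Interferon-stimulated reference genes were higher in OE33 siPPARG as well. Of 12 such genes, 10 were kept in OE33. Of these, 10 had an interval above 1, against 26.0% of all genes kept, and 6 were more than 2-fold higher, against 1.08%. Their median log2 fold was 1.57 in OE33 and 0.030 in Eso26. IFIT3 was 4.71-fold higher in OE33 siPPARG, IFIT1 4.61-fold and IFIT2 3.60-fold, and in Eso26 these stood at 1.02, 1.13 and 0.875. The interferon genes themselves were near the limit of detection, with 9 genes summing to 0.681 and 0.362 CPM in OE33 siPPARG and control and to 0.0468 and 0.129 CPM in Eso26 siPPARG and control. CXCL10, a chemokine gene of the same list, had 1 count in OE33 siPPARG and 0 in the OE33 control, and 12 and 32 in Eso26 siPPARG and control. Between the controls, 6 of 10 interferon-stimulated genes and 7 of 14 genes of the receptor list were at least 2-fold higher in OE33. SOCS3, one of these 7, passed the filter through the OE33 control only, at 46.4 against 0.862 CPM. That count is therefore in part built in. The share over all genes kept was 21.5%, and the median log2 folds of the lists were 1.45 and 1.03. The part of the interferon response in the checkpoint values was not tested.

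Other ligands that immune cells recognise were also higher in OE33 siPPARG. Of 24 listed, 23 were in the tables and 12 were kept. Of the 12, 11 were higher and 9 had an interval above 1, against 26.0% of all genes kept, and none reached 2-fold. The median log2 fold was 0.49. Under the filter, VTCN1, a B7 family inhibitor of T cells, had 65 counts in OE33 siPPARG and 18 in the OE33 control, a ratio of 3.40 (interval 1.99 to 6.09), and stood at 1.30 in Eso26 (interval 1.11 to 1.53). NCR3LG1, a ligand of the NK receptor NKp30, had 83 and 29 counts in OE33 siPPARG and control, a ratio of 2.69 (interval 1.75 to 4.27). It had 42 and 113 counts in Eso26 siPPARG and control, a ratio of 0.404 (interval 0.276 to 0.580). CEACAM1, an adhesion protein that inhibits T and NK cells, was 1.78-fold higher (interval 1.35 to 2.35). TNFRSF14, the ligand of BTLA, was 1.72-fold higher (interval 1.42 to 2.10) and HLA-E, which binds the NK receptor NKG2A, 1.60-fold (interval 1.55 to 1.65). In Eso26 the list had a median of 0.038 over 10 genes, with CEACAM1 at 1.05, TNFRSF14 at 1.21 and HLA-E at 1.21 times the control. Between the controls, 8 of 14 were at least 2-fold higher and 2 at least 2-fold lower in OE33, against 21.5% and 16.3% of all genes kept. Among the higher, ICOSLG, VSIR, TNFSF9 and MICB passed the filter through the OE33 control only. The 2 lower, VTCN1 and BTNL9, passed through the Eso26 control only. Both counts are therefore in part built in. CD80, a costimulatory ligand, had 0 counts in all 4 libraries.

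The relatives of PVR and LGALS9 were divided in direction. Of 13 nectin and galectin genes, 6 were kept in OE33, 4 higher and 2 lower, with a median log2 fold of 0.23. NECTIN4 was 1.42-fold higher in OE33 siPPARG (interval 1.30 to 1.56) and NECTIN1 stood at 0.690 (interval 0.653 to 0.730). In Eso26, 8 were kept, 3 higher and 5 lower, with a median of -0.024, NECTIN4 at 0.843 and NECTIN1 at 1.13 times the control. LGALS4, a galectin of the intestinal epithelium, had 1540 counts in Eso26 siPPARG and 1068 in the Eso26 control, a ratio of 1.57 (interval 1.45 to 1.70), and 4 and 2 counts in OE33 siPPARG and control.

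Genes that act on the PD-L1 and CD47 proteins had no common direction either. Of 15, 14 were kept in OE33, 9 higher and 5 lower, with a median log2 fold of 0.021. CMTM6, which keeps PD-L1 at the cell surface, stood out, with 2154 counts in OE33 siPPARG and 3735 in the OE33 control, or 0.543 times the control (interval 0.515 to 0.573). That was the 75th lowest log2 fold of the 10550, while CD274 mRNA itself was higher. In Eso26 CMTM6 stood at 0.865 (interval 0.812 to 0.920). TRIM21, an antibody-binding ubiquitin ligase, was 1.81-fold higher in OE33 siPPARG and stood at 0.923 in Eso26. THBS1, which encodes the CD47 ligand thrombospondin-1, was 1.48-fold higher in OE33 (interval 1.30 to 1.68) and lower in Eso26, at 0.716 (interval 0.625 to 0.820). The Eso26 median was -0.045 over 13 genes. QPCTL, which modifies CD47 so that SIRPA can bind it, stood at 0.999 in OE33 (interval 0.836 to 1.20).

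A wider list around the tryptophan pathway had no common direction. Besides enzymes of the route it holds SLC7A5, SLC3A2, AHR, CYP1A1 and WARS, so its counts and medians do not describe the enzymes alone. Of 13 genes, 9 were kept in OE33, 5 higher and 4 lower, none by 2-fold, and the median log2 fold was 0.25. WARS, the tryptophanyl-tRNA synthetase, was 1.39-fold higher in OE33 siPPARG (interval 1.31 to 1.47) and stood at 0.990 in Eso26. HAAO and QPRT, late enzymes of the route from kynurenine to NAD, had 310 and 2380 counts in Eso26 siPPARG and 246 and 1829 in the Eso26 control, ratios of 1.37 and 1.41. In OE33 siPPARG and control, HAAO had 9 and 9 counts and QPRT 153 and 147. In Eso26 the list had 3 genes higher and 6 lower, with a median of -0.21.

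On the receptor side, 1 of 12 checkpoint receptor genes was kept. This was SIRPA, the CD47 receptor, with 1264 counts in OE33 siPPARG and 894 in the OE33 control, a ratio of 1.33 (interval 1.22 to 1.45). It had 538 counts in Eso26 siPPARG and 551 in the Eso26 control, a ratio of 1.06 (interval 0.941 to 1.20). Between 7 and 9 of the 12 receptor genes had 0 counts in each library.

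**Figure D3:**
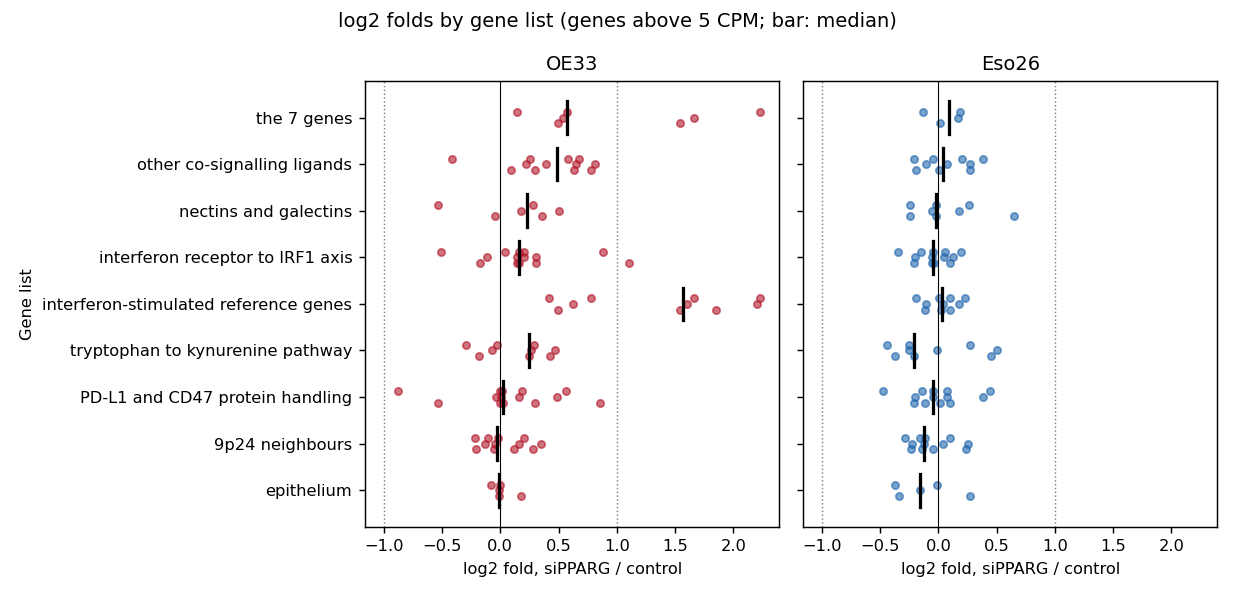
log2 fold of siPPARG against control for each gene above the filter, by list, in OE33 (left) and Eso26 (right); black bars are medians and dotted lines mark 2-fold. In OE33 the medians are 0.57 for the 7 checkpoint genes, 0.49 for other ligands and 1.57 for interferon-stimulated genes, and in Eso26 they are 0.089, 0.038 and 0.030.

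Genes with the most similar pattern over the 4 libraries were sought by the distance between centred log2 CPM profiles among 11381 other genes. The nearest 5 were picked for their small distance, so that they lie below the median was fixed in advance. For PDCD1LG2 they were RELN, GBP5, IFIT1, MARCH4 and UBE2L6, at distances from 0.113 to 0.801, against a median of 5.76 over all genes. RELN had 200 and 37 counts in OE33 siPPARG and control and GBP5 had 196 and 43, and both had 0 in Eso26. For CD274 they were RAB32, SMIM10, SYT14, STS and SPRR3, at distances from 0.251 to 0.295, against a median of 7.78. All 5 had 0 counts in both Eso26 libraries. A prior count of 2 was added before the log2, so the distance of a gene with 0 counts depends on that prior and on its OE33 counts. RAB32, the nearest to CD274, had 496 and 341 counts in OE33 siPPARG and control, where CD274 had 1200 and 799. CD274 and PDCD1LG2 were 2.56 apart from each other.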

How the data were processed

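The authors deposited raw counts per gene, whole numbers without normalisation. The submitters' processing notes name Trim Galore, STAR, Bowtie, Picard, MACS2 and hg19, with no roles, and the sources used here do not give the counter, strand setting or annotation. Of 37533 rows, 40 repeated an identifier and were summed; 37402 of 37493 identifiers matched the name table. Counts were scaled with TMM factors over all 4 libraries (edgeR 4.0.16, R 4.3.3). Ratios are of scaled CPM, log2 folds used a prior count of 2, and genes at 5 CPM in at least 1 library of a comparison were kept. Intervals are exact binomial for ratios and exact Poisson for CPM (scipy 1.17.1). They cover counting error only, because each group was 1 library. PCR reads are not independent molecules, so the intervals may be too narrow even for that error. Replicate origin is not stated, and with 1 library per group the p-values do not measure a spread between replicates. In the fits of all 4 libraries, the residual is how far the siPPARG effect differs between the lines. Without the Eso26 library labelled siPPARG, it is the difference between the OE33 libraries. Adjusted p-values are Benjamini-Hochberg over all genes tested; DESeq2 1.42.0 and limma 3.58.1 were alternatives. The procedures were tested on simulated data. The simulation of the common fit changed genes above 5 CPM in all 4 libraries, by the same fold in both lines. It does not cover a response in 1 line only or genes nearly absent from Eso26. The 7 genes and all lists were chosen with earlier results of these data known. Also named were PPARG, up to 3 kept genes of each list ranked by absolute log2 fold over both lines, and the 5 genes nearest in pattern to each PD-1 ligand. JAK2, PLGRKT, AK3, CD80, VTCN1, NCR3LG1, CXCL10, QPCTL, LGALS9B, LGALS9C, PTPRC, CD3D and CD3E were named after their values were seen. So were IRF1, SOCS3, ICOSLG, VSIR, TNFSF9, MICB and BTNL9. Further genes are named only to say what a list held. The PPARG peak lists were not analysed here. A gene of the interferon receptor list that the rule would name is not reported here.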

Additional observations from a re-analysis of the deposited data

Results flagged for a closer look

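CD47 had counting intervals on opposite sides of 1 in the lines, at 1.49 times the control in OE33 siPPARG and 0.912 times in Eso26 siPPARG. The difference between these effects was not tested, and the Eso26 interval includes 1 without a scaling factor.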

How the results depend on the processing

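In OE33, 157 genes were past 2-fold, against 1137 with no filter, 297 at 1 CPM and 600 past 1.5-fold. In Eso26 there were 21, against 1047 with no filter, 100 at 1 CPM, 9 at 10 CPM and 249 past 1.5-fold; without a scaling factor 8 were higher and 10 lower, in place of 6 and 15. Between the controls there were 4233, against 7421 with no filter and 6653 past 1.5-fold. Of the 7 genes, 3 stayed past 2-fold in OE33 under each scaling, prior count and filter tried, and 0 in Eso26. With DESeq2 size factors 1 in place of 2 of the 4 genes kept in Eso26 had an interval above 1 there. The common effect gave 0 calls with edgeR, 13 with DESeq2 and 64 with no filter, and limma gave 0. For CD276 the line log2 difference of -0.014 became 0.061 without the Eso26 library labelled siPPARG (adjusted p = 0.732). The causes were not tested, beyond the number of genes each filter admits. The common fit, with line as a term, sets siPPARG against control within each line; with 1 library per group there are no replicate numbers to pair by. With 1 library per group, differences within a line have no replicate check.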
